A study of Mus musculus with 36 samples.

Results

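Genes for signals that draw immune cells into tissue, hold them there or keep them alive are described here in transformed mouse astrocytes. The 10 genes are the chemokine genes Ccl2, Ccl7, Ccl5, Cxcl1, Cxcl10, Cxcl12 and Cx3cl1, the adhesion molecule gene Vcam1, the macrophage growth factor gene Csf1 and the alarmin gene Il33. Members were listed by symbol, with earlier results of these data known. Shares of members called, set beside those of all genes, are therefore descriptions only. All 10 were found among the 46078 genes of the count table by their Ensembl mouse identifiers. The 36 libraries of 10 lines were made by BRB-seq, in which barcoded samples are mixed early and only the 3′ end of each polyadenylated RNA is sequenced. Each of 5 lots, 6, 7, 8, 11 and 12, held 1 female and 1 male line, and the design text says that iterations came from different litters. There were 3 libraries of each line in lots 6 and 12, against 4 in the others. Every line had the genotype Nf1-/- DNp53, that is, loss of the Ras inhibitor Nf1 with a dominant-negative p53, so no line with intact Nf1 or p53 served as a control. All cells were kept in DMEM/F12 with fetal bovine serum and penicillin/streptomycin, and the labels name no other treatment. The strain, the age of the animals and whether a line was a clone are not given in the sources used here. The comparison asked is whether female and male lines differ, and with 1 line per sex and lot, a lot's sex difference cannot be told apart from a difference between its 2 lines for any other reason.

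Chemokines are small secreted proteins that guide leukocytes along gradients by binding receptors on the leukocyte surface. Vcam1 on a cell's surface is bound by integrins of passing leukocytes, and Csf1 keeps macrophages and microglia, the resident macrophages of the brain, alive through its receptor. NF-kB, a family of transcription factors switched on by inflammatory signals, is known to induce Ccl2, Ccl5, Cxcl1, Cxcl10, Cx3cl1 and Vcam1 in many cell types, and glioma cells use several of these signals to recruit monocytes and microglia.

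Library totals ran from 4358098 to 7562901 counts, so that a level of 3 counts equalled 0.385 to 0.715 CPM depending on the library. CPM are counts scaled to a common library size, here after TMM scaling, which corrects library size for composition. The labelled sex fitted the data: Y-linked genes summed to at most 1.80 CPM in female libraries and at least 10.6 CPM in male ones. Of 10 astrocyte markers, Gja1 had line means of 75.6 to 217 CPM and Sox9 of 7.64 to 18.8 CPM, while Gfap, the defining filament of astrocytes, reached at most 0.497 CPM and Aqp4 at most 0.712 CPM. The 10 fibroblast and mural markers, led by the smooth muscle actin gene Acta2, summed to 1875 CPM in the lot 7 male line and 17124 CPM in the lot 6 female line. Microglia and macrophage markers summed to 5.12 to 11.5 CPM, with Tyrobp, Itgam and Adgre1 at 0 in every library, and T and NK cell markers to at most 0.481 CPM. Nothing in the labels states that a line's libraries came from different cultures, and p-values within a lot then measure the spread between libraries, which may be technical.

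Promoter sequences of 6 of the 10 genes (Csf1, Cxcl1, Cxcl10, Cxcl12, Cx3cl1 and Il33) were matched in a RefSeq table on build GRCm38.p6, and the stretch before the start site was searched on both strands. The letters searched were the NF-kB consensus, an interferon response motif, TGANTCA (an AP-1 site) and TATAAA. The 3 windows that hold the NF-kB consensus are shown, beside that of Cxcl12, which holds none of these letters. The Cx3cl1 window before any exon was only 79 bases long. Sequences run 5′ to 3′ on the gene's strand, end at the base before the start site, and have every match in capitals.
Cxcl10, chr5:92348890-92349139, minus strand: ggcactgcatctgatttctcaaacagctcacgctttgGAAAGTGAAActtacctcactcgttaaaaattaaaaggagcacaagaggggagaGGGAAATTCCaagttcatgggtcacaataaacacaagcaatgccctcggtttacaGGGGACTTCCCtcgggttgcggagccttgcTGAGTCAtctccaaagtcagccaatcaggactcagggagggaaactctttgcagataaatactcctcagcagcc
Cxcl1, chr5:90890995-90891240, plus strand: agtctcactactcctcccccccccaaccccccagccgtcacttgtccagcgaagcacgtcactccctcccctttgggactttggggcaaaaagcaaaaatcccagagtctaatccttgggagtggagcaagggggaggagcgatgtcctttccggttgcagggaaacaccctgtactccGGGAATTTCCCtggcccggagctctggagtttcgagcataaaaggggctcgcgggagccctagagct
Csf1, chr3:107760470-107760719, minus strand: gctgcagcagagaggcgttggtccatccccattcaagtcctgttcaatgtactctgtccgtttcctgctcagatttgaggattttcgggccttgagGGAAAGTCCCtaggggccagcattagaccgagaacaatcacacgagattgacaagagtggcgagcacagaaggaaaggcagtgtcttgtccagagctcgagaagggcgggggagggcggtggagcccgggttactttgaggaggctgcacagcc
Cxcl12, chr6:117168285-117168534, plus strand: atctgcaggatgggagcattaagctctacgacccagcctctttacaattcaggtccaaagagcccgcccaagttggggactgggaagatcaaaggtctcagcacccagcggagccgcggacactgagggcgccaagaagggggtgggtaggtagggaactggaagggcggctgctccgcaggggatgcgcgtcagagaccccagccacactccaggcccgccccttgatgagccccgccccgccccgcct
Cxcl10 holds the NF-kB consensus starting 159 and 104 bases before the start site, with overlapping matches at the second place, the interferon response motif at 213 bases and TGANTCA at 74 bases. Cxcl1 holds the NF-kB consensus at 71 bases, where overlapping matches lie on both strands, and Csf1 holds it at 154 bases. Of 32851 mouse promoters searched over 250 bases, 7.25% held the NF-kB consensus, 2.98% the interferon response motif, 6.75% TGANTCA and 12.4% TATAAA. A match is a description of letters and was not tested as a binding site.

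Ccl2, the main attractant of monocytes (chr11:82035571-82037453, GRCm38), was high in the lot 8 female line and in the male lines of lots 7, 11 and 12. In lot 8, the female libraries had 32.4, 35.5, 42.0 and 9.49 CPM and the male ones 8.22, 5.00, 6.50 and 5.16 CPM. In lot 7, the female libraries had 13.3, 6.12, 8.89 and 6.72 CPM and the male ones 28.6, 31.2, 31.7 and 12.3 CPM. Every female library lay above every male one in lot 8, and in lot 7 the groups met only where male replicate 4 fell below female replicate 1. The lot 11 female libraries had 6.01, 6.70, 5.04 and 5.27 CPM against 16.0, 16.2, 26.1 and 8.09 CPM in the male ones, with no overlap. The lot 12 female libraries had 5.38, 6.98 and 6.06 CPM and the male ones 12.3, 9.83 and 18.3 CPM, also without overlap. In lot 6 the female libraries (7.31, 7.92 and 8.57 CPM) lay within the range of the male ones (5.73, 5.48 and 9.56 CPM). By edgeR's quasi-likelihood test with Benjamini-Hochberg adjustment over all genes, Ccl2 was higher in the female line of lot 8 by 2.26 ± 0.35 on the log2 scale (SE), a fold of 4.79 (adjusted p = 1.11e-05). It was lower in the female line of lot 7, at -1.57 ± 0.34 (edgeR adjusted p = 0.00115), and of lot 11, at -1.52 ± 0.35 (edgeR adjusted p = 0.0047).

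Replicate 4 was the lowest of its line for Ccl2 in 3 of the 6 lines that have one, namely the lot 7 male, lot 8 female and lot 11 male lines, the highest lines of those lots. These 6 libraries also had the lowest shares of mitochondrial mRNA, 0.251 to 0.349% against at least 0.461% in all other libraries. Without them, an alternative chosen after seeing the data, the Ccl2 differences were -1.70 in lot 7, 2.48 in lot 8 and -1.69 in lot 11, all still past the threshold in edgeR. The lot 12 difference of -1.13 ± 0.40 missed it in the full data (edgeR adjusted p = 0.117) and passed without those libraries (adjusted p = 0.0201).

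Ccl7, a second monocyte attractant, lies next to Ccl2 (chr11:82045712-82047525), 8.26 kb from its end. Line means lay between 0.381 CPM (lot 6, male) and 2.67 CPM (lot 12, male), on 0 to 35 counts per library. The lot 6 libraries did not overlap, with 0.641, 3.17 and 2.29 CPM in the female line and 0.370, 0.177 and 0.597 CPM in the male line. The difference there was 2.32 ± 0.93 and did not pass (edgeR adjusted p = 0.0567), and no lot gave a call for Ccl7. Over the 36 libraries, which share lines and depth, the deviations of Ccl2 and Ccl7 from their line means (log2 CPM) had a Pearson r of 0.519.

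Ccl5, which attracts T cells and monocytes (chr11:83525778-83530518), had its highest levels in the lot 6 female and lot 7 male lines. The lot 6 female libraries had 9.88, 15.6 and 8.998 CPM and the male ones 1.85, 0 and 0.896 CPM. The lot 7 female libraries had 1.17, 1.75, 1.87 and 0.840 CPM against 14.2, 16.6, 6.19 and 9.27 CPM in the male ones. Neither pair of lines overlapped, and the direction was opposite: the female line was higher by 3.63 ± 0.84 in lot 6 (12.4-fold, edgeR adjusted p = 0.000858) and lower in lot 7 (-3.01 ± 0.69, edgeR adjusted p = 0.00226). The lot 11 male libraries (3.32, 4.65, 2.65 and 4.67 CPM) also lay above the female ones (1.67, 0.683, 2.26 and 0.155 CPM), at -1.69 ± 0.70, without passing (edgeR adjusted p = 0.197). Both lot 8 lines were near the floor, at 0.504 and 0.404 CPM. In lot 12, the male libraries had 0.232, 0 and 3.72 CPM and the female ones 2.69, 2.08 and 6.39 CPM. That difference of 1.42 ± 0.79 did not pass (edgeR adjusted p = 0.412), and it passed without male replicate 3, against male libraries with 1 and 0 counts (edgeR adjusted p = 0.00625).

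Cxcl1, a neutrophil attractant (chr5:90891241-90893115), was called in lot 7 only. The lot 7 female libraries had 0, 0.525, 0.312 and 0.840 CPM and the male ones 1.85, 2.89, 4.76 and 5.67 CPM, with no overlap. The difference was -3.10 ± 0.89 (edgeR adjusted p = 0.0177), and it no longer passed without female replicate 1, female replicate 3 or male replicate 4 (edgeR adjusted p = 0.0622, 0.0516 and 0.0509). The lot 11 libraries were also separate, with 0, 1.37, 1.39 and 1.40 CPM in the female line and 2.69, 5.51, 4.92 and 3.27 CPM in the male line, at -1.95 ± 0.81 (edgeR adjusted p = 0.202). In lot 6 the order turned, with 3.98, 2.59 and 3.57 CPM in the female line and 0.740, 0.177 and 2.24 CPM in the male line (1.64 ± 0.93, edgeR adjusted p = 0.205). In lot 8, male replicate 4 was the highest male library, and the difference of 1.88 ± 0.85 (edgeR adjusted p = 0.162) passed without it (adjusted p = 0.035). Replicate 4 had the highest Cxcl1 level in 5 of 6 lines. Without replicate 4 of lots 7, 8 and 11 the lot 7 difference was -3.37 and still passed (edgeR adjusted p = 0.0472), while lot 8 (2.56) and lot 11 (-2.20) still did not (edgeR adjusted p = 0.167 and 0.251).

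Cxcl10, an interferon-induced attractant of T cells (chr5:92346638-92348889), was close to the floor, with 0 to 21 counts per library. The female lines of lots 12 and 6 had the highest means, 2.12 ± 1.47 and 1.61 ± 0.22 CPM (SD, n = 3). The lot 6 female libraries had 1.54, 1.44 and 1.86 CPM and the male ones 0, 0 and 0.597 CPM, a difference of 2.81 ± 1.35 that did not pass (edgeR adjusted p = 0.124). It passed without male replicate 3, against 2 libraries at 0 (edgeR adjusted p = 0.0356). An exon of Cxcl10 overlaps Art3, which had 3 counts in all libraries together.

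Cxcl12 holds and guides cells that carry its receptor Cxcr4, among them stem cells and lymphocytes (chr6:117168535-117181367). Its libraries of a line differed least among the 10 genes, with a biological coefficient of variation of 13.1%. The female libraries of lot 11 had 97.5, 92.8, 91.5 and 98.9 CPM and the male ones 276, 191, 233 and 214 CPM. In lot 8 the female libraries had 78.7, 70.4, 73.4 and 89.8 CPM and the male ones 115, 122, 165 and 141 CPM. Male libraries lay wholly above female ones in both lots, and the differences were -1.26 ± 0.13 in lot 11 (2.40-fold, edgeR adjusted p = 1.23e-09) and -0.80 ± 0.13 in lot 8 (edgeR adjusted p = 1.61e-05). In lot 6 the female line was higher, with 221, 207 and 220 CPM against 137, 137 and 158 CPM, a difference of 0.58 ± 0.14 (edgeR adjusted p = 0.00172). Lot 7 gave 0.11 ± 0.13 and lot 12 0.20 ± 0.14, both without a call. Both lot 12 lines had the highest means, 358 ± 19.5 CPM (SD, n = 3) in the female and 311 ± 57.6 CPM (SD, n = 3) in the male line, and their libraries overlapped.

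Cx3cl1, the membrane-bound chemokine that neurons use to signal to microglia (chr8:94772009-94782427), was called higher in the female line in 3 lots, more than any other member. In lot 6, the female libraries had 150, 148 and 160 CPM and the male ones 38.1, 30.4 and 60.2 CPM. In lot 8, the female libraries had 119, 117, 154 and 94.4 CPM and the male ones 24.9, 26.0, 22.0 and 27.1 CPM. The lot 12 female libraries had 152, 205 and 252 CPM and the male ones 101, 114 and 95.0 CPM. In all these lots the lowest female library lay above the highest male one. The differences were 1.83 ± 0.21 in lot 6 (3.55-fold, edgeR adjusted p = 5.20e-09), 2.27 ± 0.19 in lot 8 (4.84-fold, edgeR adjusted p = 1.01e-11) and 0.97 ± 0.20 in lot 12 (1.97-fold, edgeR adjusted p = 0.00188). In lot 11 the female libraries had 92.7, 68.1, 51.2 and 66.7 CPM and the male ones 56.1, 45.8, 46.9 and 62.7 CPM, an overlapping pair at 0.40 ± 0.18 (edgeR adjusted p = 0.253). Lot 7 went the other way, with 89.5, 71.7, 80.4 and 101 CPM in the female line and 88.5, 136, 102 and 106 CPM in the male line, at -0.34 ± 0.17 (edgeR adjusted p = 0.235).

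Vcam1, which integrins of leukocytes bind (chr3:116109949-116129688), was lowest in the female lines of lots 6 and 7. The lot 6 female libraries had 8.08, 9.65 and 7.71 CPM against 26.3, 37.8 and 34.0 CPM in the male ones. The lot 7 female libraries had 25.2, 30.1, 34.3 and 14.9 CPM and the male ones 57.1, 50.6, 54.2 and 56.7 CPM. Neither lot overlapped, and the differences were -1.95 ± 0.22 in lot 6 (3.86-fold, edgeR adjusted p = 3.43e-09) and -1.06 ± 0.18 in lot 7 (edgeR adjusted p = 2.93e-05). In lot 8 the lines overlapped, with 37.6 to 47.4 CPM in the female and 43.3 to 53.2 CPM in the male line (-0.11 ± 0.17, edgeR adjusted p = 0.776). The female line was nominally above the male line in lots 11 and 12, by 0.43 ± 0.17 and 0.37 ± 0.20, without a call (edgeR adjusted p = 0.176 and 0.378). Among female lines the Vcam1 mean was 8.48 ± 1.03 CPM (SD, n = 3) in lot 6 and 70.4 ± 10.1 CPM (SD, n = 4) in lot 11, an 8.31-fold span, and male lines lay between 32.7 and 54.7 CPM. An exon of Vcam1 overlaps Gm43109, which had 12 counts in all.

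Csf1, the growth factor of macrophages and microglia (chr3:107741048-107760469), spanned the smallest range of line means, 66.5 to 171 CPM or 2.58-fold. The lot 8 female libraries had 62.4, 79.5, 72.2 and 71.7 CPM and the male ones 140, 153, 150 and 130 CPM. The lot 11 female libraries had 65.6, 75.2, 68.6 and 56.6 CPM against 123, 116, 108 and 90.4 CPM in the male ones. In both lots every male library lay above every female one, with differences of -1.002 ± 0.15 in lot 8 (edgeR adjusted p = 6.47e-06) and -0.71 ± 0.15 in lot 11 (edgeR adjusted p = 0.0018). In lot 6 the female line was higher and separate, with 177, 158 and 179 CPM against 120, 127 and 107 CPM. The lot 6 difference was 0.54 ± 0.17 (edgeR adjusted p = 0.0147), and it no longer passed without female replicate 3 or male replicate 3 (edgeR adjusted p = 0.0514 and 0.0728). Replicate 4 had the lowest Csf1 level in 4 of 6 lines.

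Il33, an alarmin kept in the nucleus and set free by damaged cells (chr19:29925114-29960718), had 161 counts in all 36 libraries. All 3 lot 6 female libraries had 0 counts, and the male ones had 1, 0 and 11 counts, so that the male level rested on replicate 3, and no fold is given. The highest line means were in lot 12, with 4.34, 0 and 1.18 CPM in the female and 5.10, 2.28 and 0.893 CPM in the male libraries, which overlapped. The lot 11 female libraries had 3.17, 0.820, 1.39 and 0.310 CPM. No lot gave a call for Il33.

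**Figure D1:**
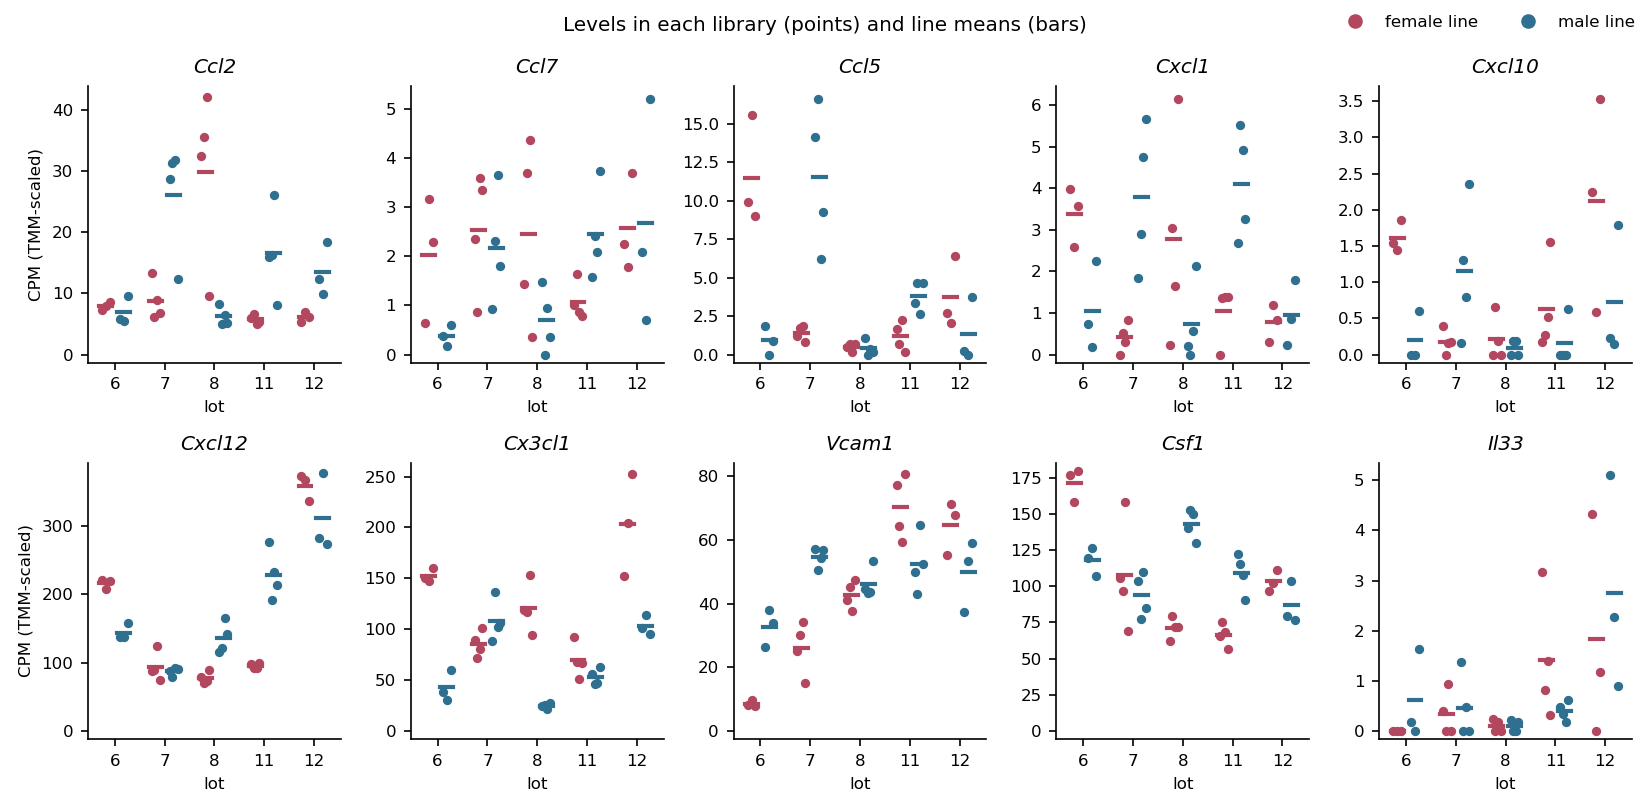
Level of each of the 10 genes in CPM (TMM-scaled, linear axes that differ between genes) against lot, with 1 point per library and a bar at the mean of each line, female lines in red and male lines in blue. Ccl2 is high in the lot 8 female and lot 7 male lines, Cx3cl1 is lowest in the lot 8 male line at a mean of 24.97 CPM, and Il33 has 0 counts in all 3 lot 6 female libraries.

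Calls were frequent within single lots and changed side between them. Of 50 tests of a gene within a lot, 17 passed, 7 with the female line higher and 10 with it lower. The members called were 5 of 10 in lot 6, where 27.4% of all 12173 genes tested passed, 4 in lot 7 (10.8% of all genes), 4 in lot 8 (11.6%), 3 in lot 11 (4.30%) and 1 in lot 12 (3.77%). In lot 12 same-numbered libraries deviated together. With the replicate number as a block, 705 genes in place of 459 passed there in edgeR, and Cx3cl1 remained the 1 member called. By direction, 4 members were higher and 1 lower in the lot 6 female line (13.4% and 14.0% of all genes). In lot 8, 2 were higher (6.47%) and 2 lower (5.17%), while all 4 of lot 7 and all 3 of lot 11 were lower (5.44% and 2.79% of all genes, against 5.39% and 1.50% higher). The 1 call of lot 12 was higher (1.70% of all genes, against 2.07% lower). Medians of the members' log2 differences were 1.11 for lot 6, -0.74 for lot 7, 0.65 for lot 8, -0.94 for lot 11 and 0.23 for lot 12, against medians of all genes between -0.01 and 0.06. Any negative value of Il33, whose female libraries are at 0, leaves the lot 6 median as it is.

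In all, 7 members were called in at least 1 lot, as were 39.1% of all genes. Ccl2, Ccl5, Cxcl12 and Csf1, 4 of the 10, were called higher in the female line of 1 lot and lower in that of another, which 4.93% of all genes were. None of the 10 kept 1 direction in all 5 lots, as 9.73% of all genes did. The test of whether the female minus male difference was alike in the 5 lots was passed by 7 of 10 members, all but Ccl7, Cxcl10 and Il33, and by 30.2% of all genes. Among female lines alone, 9 of 10 members differed between lots (42.0% of all genes), all but Ccl7. Among male lines, 8 of 10 did (30.7%), all but Cxcl10 and Il33. The calls of Cxcl1 and Cxcl10 among female lines and of Cxcl1 and Ccl7 among male lines were lost when several single libraries were left out, and so was that of Vcam1 among male lines without lot 6 male replicate 1 or 3 (edgeR adjusted p = 0.162 and 0.0559).

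**Figure D2:**
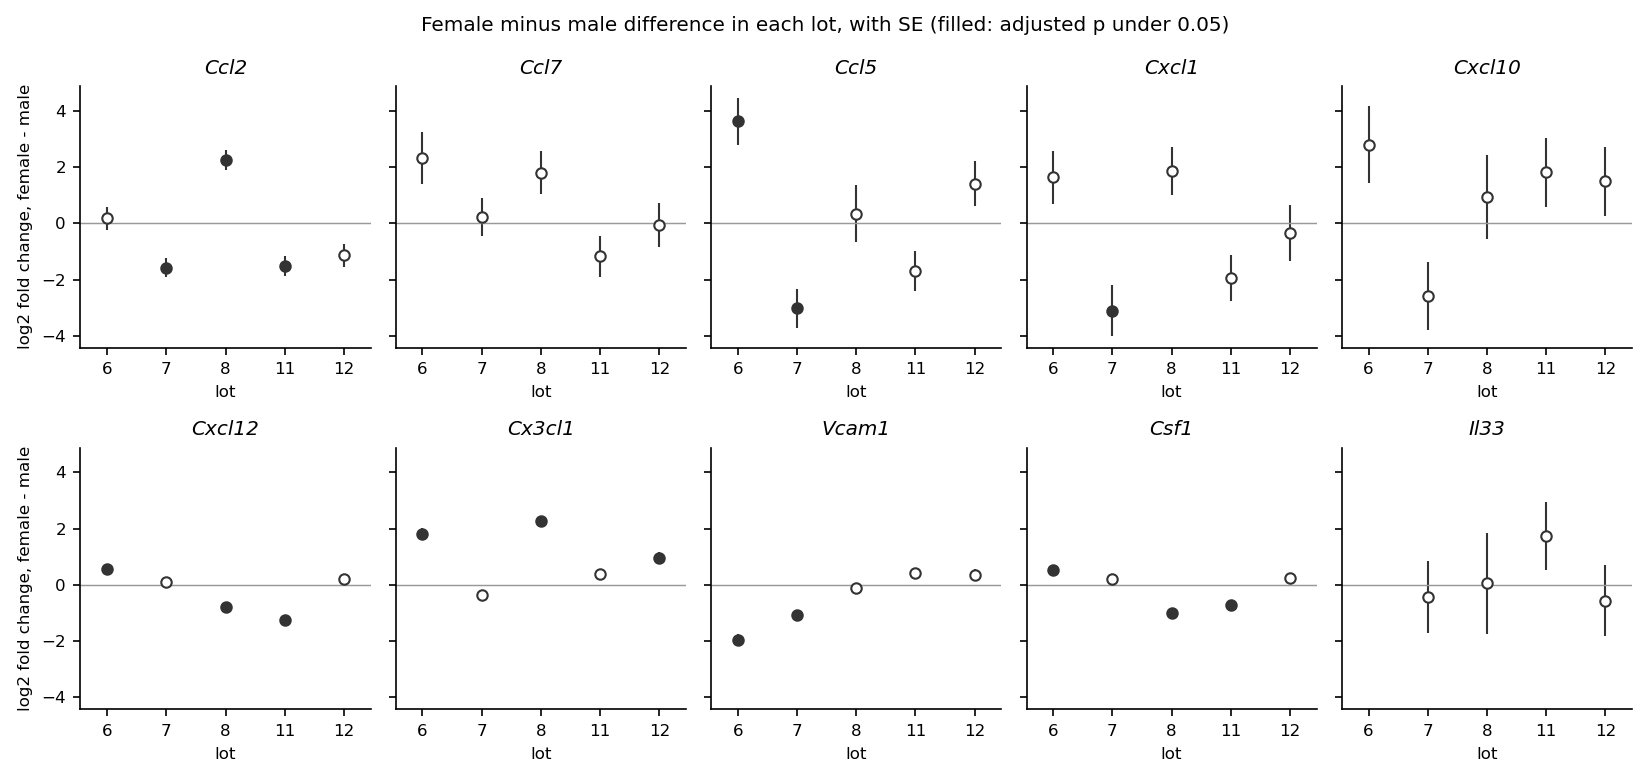
Female minus male difference of each gene (log2 fold change, edgeR, with SE) in lots 6, 7, 8, 11 and 12, filled where the adjusted p is under 0.05; Il33 in lot 6 is left out because its female libraries are all at 0. Ccl2, Ccl5, Cxcl12 and Csf1 have filled points on both sides of 0, and Cx3cl1 has its 3 filled points above 0.

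Taking the lot as the unit, with counts summed per line and lot in the model, 9 of the 10 genes could be tested, Il33 falling under the expression filter. None passed, as 0 of 12010 genes did in edgeR (0% called), while 828 genes had an unadjusted p under 0.05 (6.89%), 1 member among them. That member was Cx3cl1, at 1.01 ± 0.40 (edgeR unadjusted p = 0.0437, adjusted p = 0.705), with means over 5 lines of 126 ± 53.6 CPM (SD) in female and 66.4 ± 37.3 CPM (SD) in male lines. Its female line was the higher in 4 of 5 lots. The other 8 differences lay between -0.45 (Ccl2, SE 0.62) and 1.00 (Cxcl10, SE 0.85), none with an unadjusted p under 0.05. Cx3cl1 passed when libraries stood as replicates, with the replicate number in the model (0.97, edgeR adjusted p = 0.00314) or in limma voom with libraries blocked by line (0.91, adjusted p = 0.00358), where 1338 and 499 of all genes passed. DESeq2 on the sums called 60 genes and none of the members.

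With the 10 lines ordered by mean, neighbouring lines shared no range of library values in 2 of 9 steps for Ccl5, Cxcl12 and Csf1, in 1 for Cx3cl1 and Vcam1, and in none for the other members. Such steps were not counted for genes outside the 10, so whether these numbers are usual is not known. Some members covaried across lines. Of 45 pairs of members, 3 had the same sign of the sex difference in all 5 lots: Ccl2 with Cxcl1, Cxcl10 with Cx3cl1 and Csf1 with Cxcl12. Other pairs had opposite signs in all 5 lots: Ccl7 with Vcam1, Cxcl12 with Il33 and Csf1 with Il33. Signs were counted whether or not a difference was called, and their number was not tested. Ccl2 and Cxcl1 had a Pearson r of 0.674 over the 10 lines, and of 0.487 without the lot 8 female and lot 7 male lines. Over libraries within lines their r was -0.208. Over the 10 lines (log2 CPM, lines sharing lots and library preparation), Cxcl10 and Cx3cl1 had a Pearson r of 0.783 and Spearman rho of 0.782, and r was 0.601 without the lot 12 and lot 6 female lines. For Csf1 and Cxcl12 r was 0.363 over lines, 0.724 without both lot 12 lines, in which Cxcl12 was high, and 0.528 over the 36 libraries after removing line means. Vcam1 ran against Csf1 over lines (r = -0.699, and -0.417 without the lot 6 and lot 7 female lines) but not over libraries within lines (r = 0.384). Over all 45 pairs of members the median r was 0.180 over lines and 0.074 within lines.

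**Figure D3:**
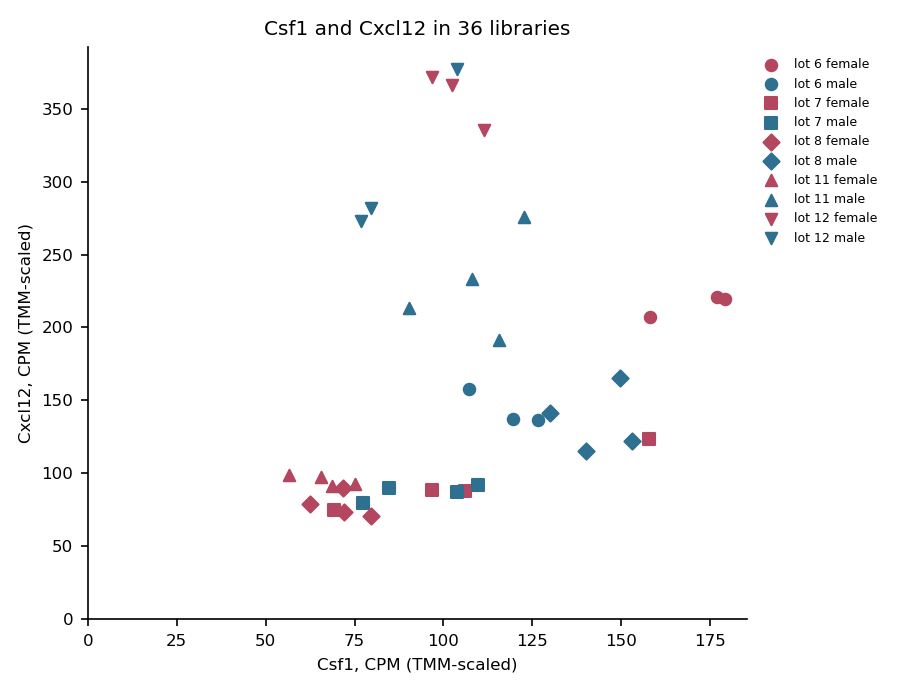
Cxcl12 against Csf1 in the 36 libraries (CPM, linear axes from 0), with the lot given by the symbol and the sex of the line by colour. The lot 12 libraries have Cxcl12 between 273 and 377 CPM at Csf1 levels of 76.8 to 111 CPM, and the highest lot 11 male library, at 276 CPM, lies within that range of Cxcl12.

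Several receptors of these signals had few or no counts in the cells. Of 25 receptor and partner genes, 10 reached 1 CPM in the mean of some line. At 0 in all libraries were 5, among them Ccr2, the main receptor of Ccl2. Cxcr4 reached a line mean of 0.461 CPM, Cx3cr1 of 0.198 CPM and Csf1r of 0.211 CPM, all at or under the level of 3 counts. The scavenger receptor of Cxcl12, Ackr3, was detected and had line means between 0.312 CPM (lot 7, female) and 12.98 CPM (lot 8, female). It was lower in the female line of lot 6 (-3.61 ± 0.68, edgeR adjusted p = 6.86e-05) and higher in that of lot 8 (3.28 ± 0.53, edgeR adjusted p = 2.11e-05), opposite in sign to Cxcl12 in both lots. The Il33 receptor gene Il1rl1 stood at 222 ± 73.4 CPM (SD, n = 4) in lot 7's female cells and 2.92 to 13.03 CPM in the other 9 lines, while Il33 had 0.332 CPM in that line. Itga4, which pairs with Itgb1 to bind Vcam1, was at most 3.26 CPM, and Itgb1 was 236 to 654 CPM. Of the 9 receptor and partner genes tested, 5 were higher and 1 lower in the lot 6 female line (13.4% and 14.0% of all genes), 2 higher for lot 7 (5.39%), 2 higher for lot 8 (6.47%), 1 lower for lot 11 (2.79%) and none called for lot 12 (3.77%).

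Among 20 genes of NF-kB subunits and feedback, 19 were tested. Counts called were 2 higher and 1 lower in the lot 6 female line (27.4% of all genes were called), 3 lower for lot 7 (5.44% of all genes), 5 higher for lot 8 (6.47%), 1 lower for lot 11 (2.79%) and 1 higher for lot 12 (1.70%). Nfkbia, the NF-kB inhibitor that NF-kB itself induces, was called in 4 lots. Its difference was 1.12 ± 0.17 for lot 6, -1.11 ± 0.15 for lot 7, 0.69 ± 0.15 for lot 8 and -0.59 ± 0.15 for lot 11 (edgeR adjusted p = 1.83e-06, 5.38e-07, 0.00127 and 0.0122), and -0.03 ± 0.17 in lot 12. For the 6 members named above as induced by NF-kB, signs were compared with that of Nfkbia in lots 6, 7, 8 and 11. Ccl2, Ccl5 and Cxcl1 had the sign of Nfkbia in each of these lots, called or not, and the others of these 6 did not. The sign of Ccl2 in lot 6 is uncertain, as its difference was smaller than its SE (0.19 ± 0.40, edgeR adjusted p = 0.787). Ccl5 in lot 8 (0.35 ± 1.01) turned to -0.13 without replicate 4. Matches in sign were not counted for all genes, so whether these are usual is not known. Vcam1 had the opposite sign in lots 6 (-1.95 ± 0.22, called), 8 (-0.11 ± 0.17) and 11 (0.43 ± 0.17). Cxcl10 (1.82 ± 1.23) and Cx3cl1 (0.40 ± 0.18) had it in lot 11. Outside these 6, Csf1, whose window holds the NF-kB consensus, was opposite to Nfkbia in lots 7 (0.20 ± 0.15) and 8 (-1.002 ± 0.15, called). Cxcl12 was opposite in the same lots (0.11 ± 0.13, and -0.80 ± 0.13, called), and Ccl7 in lot 7 (0.23 ± 0.69). Il33, on few counts, was opposite in lots 6 and 11. In lot 12, where Nfkbia was near 0, Ccl2 (-1.13 ± 0.40) and Cxcl1 (-0.35 ± 0.995) lay below 0 and Ccl5 (1.42 ± 0.79) above, all uncalled. The Nfkbia line means were 143 and 65.8 CPM in the female and male lines of lot 6, 58.4 and 126 CPM for lot 7, 73.1 and 45.2 CPM for lot 8, and 47.8 and 71.9 CPM for lot 11. Relb, an NF-kB subunit, was lower in the lot 7 female line (-1.19 ± 0.38, edgeR adjusted p = 0.0337) and higher in that of lot 8 (2.15 ± 0.41, edgeR adjusted p = 0.000231). Ccl2 was called in the same directions there, but also in lot 11, where Relb was not called. A link between Relb and Ccl2 was not tested. Of 21 other NF-kB-inducible genes 4 were tested. In the lot 6 female line 2 were higher (Lcn2 and Mmp3) and 1 lower (Ptgs2), against 13.4% and 14.0% of all genes. For lot 7, where Nfkbia was lower, 2 were higher (Ptgs2 and Mmp3, against 5.39%). None was called for lots 8 and 11 (11.6% and 4.30%), and 1 was lower for lot 12 (Ptgs2, against 2.07%). Icam1 and Il6 had line means of at most 0.476 and 0.71 CPM.

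**Figure D4:**
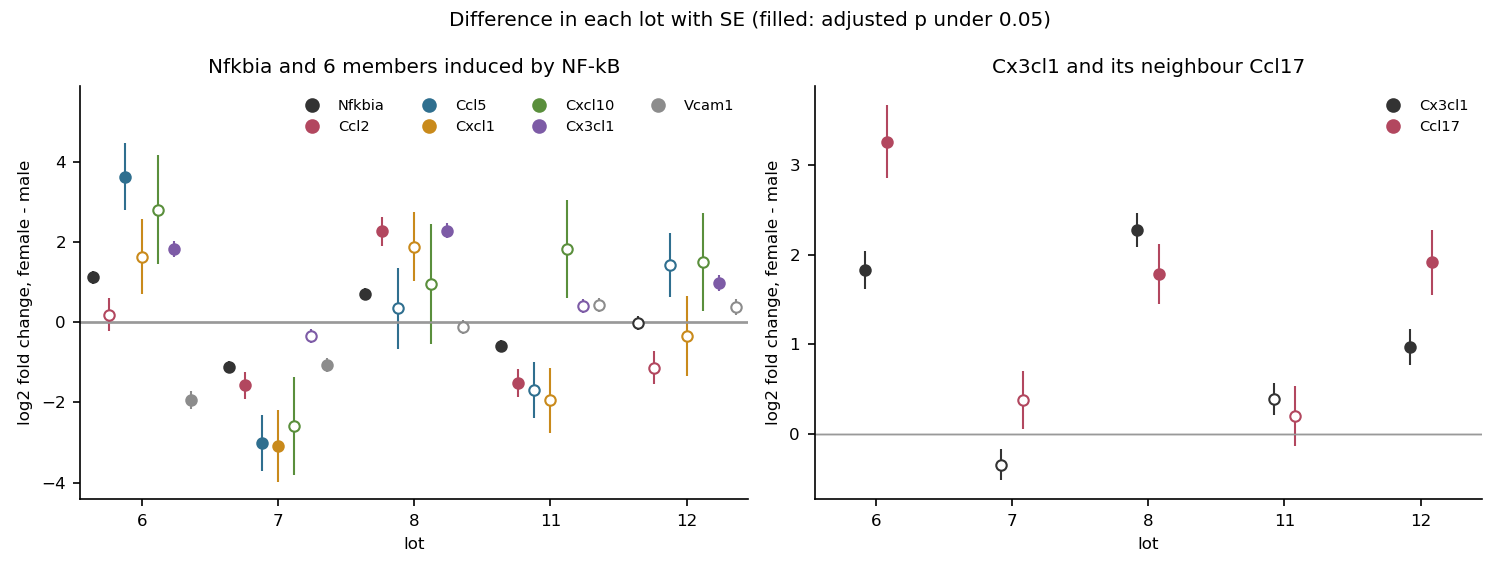
Female minus male difference (log2 fold change, edgeR, with SE, filled where adjusted p is under 0.05) by lot, for Nfkbia and the 6 members named as induced by NF-kB on the left and for Cx3cl1 and Ccl17 on the right. On the left all 7 genes lie below 0 in lot 7, while Vcam1 lies below 0 in lots 6 and 8 and Vcam1, Cxcl10 and Cx3cl1 lie above 0 in lot 11, on the other side from Nfkbia; Cx3cl1 and Ccl17 are both filled in lots 6, 8 and 12.

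In lot 6, where Ccl5 was higher in the female line, so were most of the interferon response genes tested. Of the 23 interferon genes listed, 15 were tested, and 10 were higher (13.4% of all genes were) and none lower in the lot 6 female line, where the filter admits genes that are high in that line alone. Isg15, an interferon-induced ubiquitin-like protein, had 7.39 ± 5.52 CPM (SD, n = 3) there and 0.109 CPM, from 2 counts, in the male line (edgeR adjusted p = 0.000205). Usp18, which removes Isg15, had 7.71 and 0.182 CPM, the latter from 3 counts (edgeR adjusted p = 0.0022). In lots 7, 8 and 11 the 1 interferon gene called of 15 was Bst2, lower in each female line (5.44%, 5.17% and 2.79% of all genes were lower). In lot 7, where Ccl5 was lower in the female line, the median log2 difference of the 15 was 0.60, opposite in sign. A link between Ccl5 and the interferon genes was not tested. None of the 15 was called for lot 12 (3.77% of all genes). Fibroblast and mural markers, mainly Acta2, summed to 17124 CPM in the lot 6 female and 5997 CPM in the male line, and to 9170 and 1875 CPM in lot 7. Single markers went both ways. In the lot 6 female line Acta2 and Tagln were called higher and Col1a1 and Col1a2 lower (13.4% and 14.0% of all genes). In that of lot 7, Col1a1, Pdgfrb, Acta2 and Tagln were called higher and Cspg4 lower (5.39% and 5.44%). The part of these markers in the results for the 10 genes was not tested. In these bulk libraries fewer cells of a type and less RNA per cell cannot be told apart.

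Of 35 other chemokine genes in the table, 18 had no count and 6 reached 10 counts per library in the mean of some line. Ccl17, an attractant of T helper cells, lies 28.0 kb from Cx3cl1 (chr8:94810453-94812036) and was called in the same lots. Ccl17 had 49.0 ± 13.6 and 5.09 ± 0.54 CPM (SD, n = 3) in the female and male lines of lot 6, 31.0 and 8.90 CPM in lot 8, and 106 and 28.0 CPM in lot 12. Its differences were 3.26 ± 0.41, 1.78 ± 0.34 and 1.91 ± 0.36 in those lots (edgeR adjusted p = 8.81e-08, 0.000309 and 0.000851), and it was not called in lots 7 and 11. Over the 10 lines Ccl17 and Cx3cl1 had r = 0.865. Cxcl14 was lower in the female lines of lots 6 and 7 (-1.75 ± 0.40 and -3.37 ± 0.40) and higher in those of lots 11 and 12 (1.38 ± 0.36 and 1.48 ± 0.41), all past the threshold in edgeR. Ccl9 was higher in the lot 6 female line (2.16 ± 0.74, edgeR adjusted p = 0.024). Ccl25, Ccl27a and Cxcl16 overlap other genes (Elavl1, Il11ra1 and Zmynd15), and their counts are uncertain for that reason.

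By the likeness of line profiles (Pearson r of log2 CPM over 10 line sums, best of 7890 genes whose mean log2 CPM reached 2), the nearest genes were Usp42 for Ccl2 (r = 0.866), Atg16l2 for Cx3cl1 (0.942), Maml2 for Cxcl12 (0.916), Itgb1bp1 for Csf1 (0.929) and Nupl1 for Vcam1 (0.963). With 10 lines and 7890 genes searched, these are descriptions only.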

How the data were processed

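The authors deposited 1 table of raw counts per Ensembl mouse gene, which the labels name per library; its values were whole numbers. Per the submitters' processing notes, the build was GRCm38, and the tools were Subread 2.0.2, STAR 2.7.6a and cutadapt 2.10. Whether molecular identifiers were collapsed or strand was used is not given in the sources used here. Of 46078 genes, 45229 matched GENCODE M21 by identifier (the others held 0.0295% of counts), and all deposited columns were used.

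Counts were fitted with edgeR 4.0.16 in R 4.3.3 (quasi-likelihood, robust, default expression filter, TMM scaling), with limma 3.58.1 and DESeq2 1.42.0 as alternatives. Within lots, and for differences between lots, the 36 libraries had 1 coefficient per line. Across lots, counts were summed per line and fitted with lot and sex. P-values were Benjamini-Hochberg adjusted over all genes, with a threshold of 0.05, and differences are female minus male. Log2 CPM used a prior count of 2. Plots and tables used Python 3.11.15, pandas 2.3.3 and matplotlib 3.10.9. The fits were tested on simulated data. The 48 pairs of libraries of a line differed by chi-squares of 5.47 to 22.3 per degree of freedom, so none was counted as a repeat. Floors cover counting error only.

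Residuals of same-numbered libraries of the sexes in a lot correlated at 0.131 to 0.227 in lot 12. Over all 18 pairs the range was -0.026 to 0.227, with 3 over 0.1. The labels do not say what a replicate number marks, and the main fits do not pair libraries by it. The members and gene lists were chosen with earlier results of these data known. Genes outside the 10 could be named by a rule: of each list up to 4 genes by smallest p in the tests among lines and up to 3 by size among those called within a lot, every other chemokine with 10 counts or more in some line mean, and the 3 closest line profiles of each member. Values are printed for some of these. Receptors and other genes given as undetected or low (Ccr2, Cxcr4, Cx3cr1, Csf1r, Icam1 and Il6) were named after their values were seen. Alternatives were other scalings, filters and tools, the replicate number as a block, and leaving out each library or lot.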

Additional observations from a re-analysis of the deposited data

Results flagged for a closer look

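Of the 10 genes, 7 differed between lots in their female minus male difference by the edgeR test of that difference itself. The adjusted p was 8.65e-08 for Ccl2 (called in 3 of 5 lots, from -1.57 to 2.26), 3.67e-05 for Ccl5 (-3.01 to 3.63) and 0.00375 for Cxcl1 (-3.10 to 1.88). It was 2.00e-10 for Cxcl12 (-1.26 to 0.58), 3.51e-10 for Cx3cl1 (-0.34 to 2.27), 4.85e-09 for Vcam1 (-1.95 to 0.43) and 4.60e-07 for Csf1 (-1.002 to 0.54). Ranges are log2 differences over the 5 lots.

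Single values stood apart from the rest of their group in 6 of 80 groups of 4 or 5 examined by the gap to the nearest other value, where chance gives about 1 in 20. Ccl2 in lot 7 male replicate 4, at 12.3 CPM, was far below the other 3 libraries. The lot 8 female line, at 29.9 CPM, was far above the other 4 female lines for Ccl2. Cxcl1 was 0 CPM in lot 11 female replicate 1, against 1.37 to 1.40 CPM in the other libraries. Cxcl10 was 0.622 CPM in lot 11 male replicate 4 and 0 in the other libraries. Vcam1 was 53.2 CPM in lot 8 male replicate 4, above 43.3 to 44.5 CPM. The lot 12 male line, at 2.76 CPM, was far above the other male lines for Il33. Of the 4 single libraries among these values, 3 were replicate 4, the libraries with the lowest mitochondrial shares in their lines.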

How the results depend on the processing

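Over all alternatives, 1657 values of single genes kept their direction and side of the threshold, 50 lost a call, 27 gained one and 31 changed sign, all of them uncalled in the full data. Scaling by library totals alone moved the median difference of all genes by 0.22 in lot 6 and by at most 0.09 in the other comparisons, and no called member changed direction. Depth limits Il33 and Cxcl10, with 3 counts or more in 14 and 15 of 36 libraries, and also Cxcl1 and Ccl5 (27 each) and Ccl7 (31).

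The count of members called across lots was 1 (Cx3cl1) in limma voom and with the replicate block, against 0. In lot 12 it was 2 without a filter and without replicate 4 of lots 7, 8 and 11 (Ccl2 with Cx3cl1), against 1. Leaving out a library gave 4 to 6 members in lot 6, 3 to 4 in lot 7, 4 to 5 in lot 8, 3 in lot 11, 1 to 2 in lot 12, 7 to 8 for the difference between lots, 7 to 9 among female lines and 5 to 9 among male lines, and leaving out a lot gave 0 across lots. Counts over all genes across lots were 2 without a filter, 60 in DESeq2, 1 without the lot term, 499 in voom, 1338 with the replicate block, 1 without replicate 4 and 2 without lot 6, against 0. In lot 12 they were 120 from its own libraries, 705 with the replicate block and 233 to 732 with a library left out, against 459. With the block, Ccl7 lost its call among male lines (adjusted p = 0.0676) and Il33 gained one (adjusted p = 0.0316); the counts of members called within lots stayed as they were. Without lot 6 male replicate 1, 5 members were called among male lines, against 8.

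Sign changes across lots were those of Ccl5 (-0.018 without the lot term, -0.16 in voom, -0.30 with the replicate block, -0.89 to 0.92 leaving out a lot, with -0.076 without lot 8) and, leaving out a lot, Cxcl1 (-1.01 to 0.32, with 0.14 without lot 11), Csf1 (-0.31 to 0.076, with 0.0060 without lot 11) and Cxcl12 (-0.44 to 0.022). In lot 12 Ccl7 changed to 0.24 with the replicate block, and leaving out a library gave Ccl7 -0.53 to 0.90, Cxcl1 -0.80 to 0.40 and Il33 -2.20 to 0.21. In lot 7 Ccl7 was -0.0074 without replicate 4 and -0.018 to 0.59 leaving out a library, where Csf1 gave -0.052 to 0.36, Cxcl12 -0.059 to 0.20 and Il33 -1.74 to 1.05. In lot 8 Ccl5 was -0.13 without replicate 4 and -0.055 to 1.33 leaving out a library, where Cxcl10 gave -0.46 to 1.41 and Il33 -0.49 to 0.57. The cause was not tested.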

Other observations

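Some libraries were the highest or the lowest of their line for several members. In all, 5 libraries were the highest of their line for 5 members or more. With 3 or 4 libraries in a line, some library is the highest for every gene. This was not counted for other genes, so whether the number is usual is not known. Replicate 2 was the lowest for 7 members in the lot 6 male line and for 5 in the lot 6 female and lot 8 male lines. In the lot 12 female line replicate 1 was the lowest for 5. Replicate 3 was the highest for 7 of the 10 genes in the lot 6 male line (Ccl2, Ccl7, Cxcl1, Cxcl10, Cxcl12, Cx3cl1 and Il33) and for 6 in the lot 12 male line (Ccl2, Ccl7, Ccl5, Cxcl1, Cxcl10 and Vcam1). It was also highest for 6 in the lot 7 female line (Ccl7, Ccl5, Cxcl12, Vcam1, Csf1 and Il33) and for 5 in the lot 12 female line (Ccl7, Ccl5, Cxcl10, Cx3cl1 and Csf1), and replicate 4 was highest for 5 in the lot 11 male line (Ccl7, Ccl5, Cxcl10, Cx3cl1 and Il33). Of the 10 genes, Il33 had a biological coefficient of variation between libraries of 102%, Cxcl10 of 85.4%, Cxcl1 of 66.5%, Ccl7 of 58.2%, Ccl5 of 57.4% and Ccl2 of 31.9%, while Cx3cl1 (17.5%), Vcam1 (16.6%), Csf1 (15.2%) and Cxcl12 (13.1%) were below the median of all genes, 27.9%.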
